A study of Mus musculus with 15 samples.

Results

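Livers carrying a mutant NRF2 together with the human MET receptor were compared with wild-type liver. The comparison used 6 of the 15 RNA-seq libraries of the series: the 3 labelled G31A-NFE2L2 + hMET, called NFE2L2_MET below, and the 3 labelled as wild-type liver, called WT. They were chosen by those labels alone, and every expressed gene was examined. All 6 were made from polyadenylated RNA of male FVB/NJ mouse liver that had been frozen fresh. The NFE2L2_MET livers carried NFE2L2, the gene for NRF2, with the G31A change and the human MET gene, and no mutant CTNNB1. The WT livers carried neither. The labels give no age, no vector or delivery method, no time from gene delivery to harvest and no control that received an empty vector, and they do not say whether a library is tumour, liver around it or both. They do not state that the 3 libraries of a group came from separate mice, so p-values measure only the spread between these samples, which may be technical.

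NRF2 is a transcription factor that KEAP1 normally holds in the cytoplasm and hands to the proteasome. Oxidants, electrophiles or mutations in its KEAP1-binding segments let it accumulate, pair with small MAF proteins and switch on genes for glutathione synthesis, detoxification and NADPH supply through antioxidant response elements. MET is the receptor for hepatocyte growth factor, which drives growth and survival signals in hepatocytes through the ERK and PI3K pathways. In the healthy lobule, hepatocytes near the central vein receive Wnt signals through beta-catenin and express another set of metabolic genes than those near the portal vein.

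The 15 libraries held between 14084343 and 20702618 reads assigned to genes. WT libraries had 14084343 to 17386898 and NFE2L2_MET libraries 17955859 to 19873266. Unmapped reads made up 19.8% to 25.9% of the WT libraries and 12.7% to 14.2% of the NFE2L2_MET libraries, and the 10 most abundant genes took 16.5% to 17.4% and 21.6% to 25% of assigned reads. Both measures separated the groups without overlap, and their part in the results was not tested. Levels are given below as CPM, read counts scaled to the size of each library with trimmed-mean factors. The summed CPM of 12 hepatocyte markers was 94510 to 123040 in WT and 149160 to 193770 in NFE2L2_MET, so the labelled tissue showed its markers in all 6 libraries. Albumin, Alb, was the largest part of these sums and rose by 1.28 on the log2 scale. The median log2 fold change of the 12 markers was -0.11, so the higher sum was not a rise of the markers as a set. In bulk tissue, fewer cells of a type and less RNA per cell cannot be told apart.

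Single libraries stood apart in certain genes within both groups. Serum amyloid Saa1, an acute phase protein of inflamed liver, was at 46.8, 8052 and 99.3 CPM in WT 1, 2 and 3, and at 936, 5915 and 872 CPM in NFE2L2_MET 1, 2 and 3. The siderophore-binding protein gene Lcn2 was at 1.73, 358 and 7.25 CPM in WT and 184, 663 and 160.3 CPM in NFE2L2_MET. WT 2 and NFE2L2_MET 2 were therefore the highest libraries of their groups for both genes. A further split concerned collagen: Col1a1, the chain of type I collagen made by stellate cells, was at 318, 326 and 54.5 CPM in WT and 69.9, 68.9 and 63.2 CPM in NFE2L2_MET. The libraries of the series outside these 6 lay from 23.8 to 77.7 CPM, so WT 1 and WT 2 stood above all others. WT 3 lay with the NFE2L2_MET libraries and below the other WT libraries. The same library was the highest for Elovl3, a fatty acid elongase under circadian and growth hormone control, at 111.4, 78.7 and 911 CPM in WT. WT 3 is also the one library of these 6 whose deposited file is marked ADDED, a mark the labels do not explain. Results that rest on these libraries are given with and without them.

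**Figure D1:**
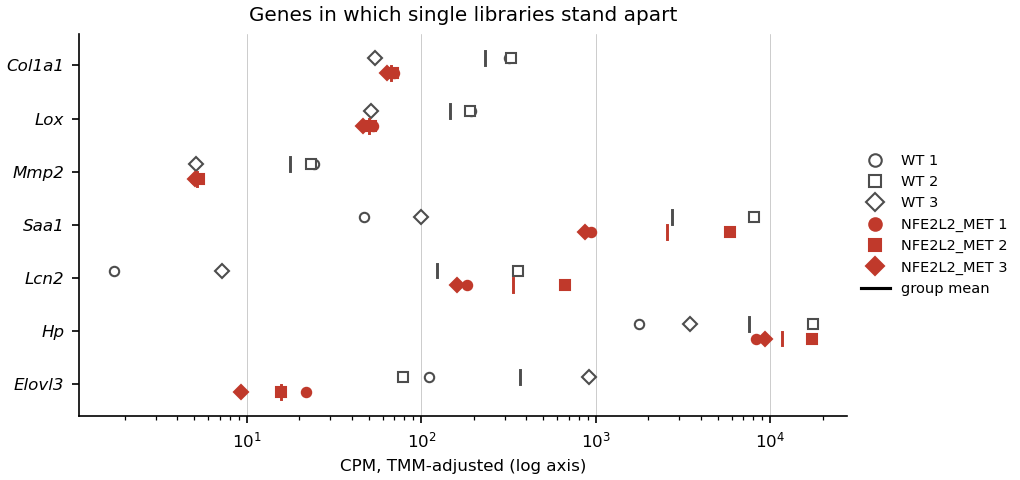
CPM of 7 genes in the 3 WT libraries (open symbols) and the 3 NFE2L2_MET libraries (filled symbols) on a log axis, with group means as vertical ticks. WT 2 (open square) is far above the other WT libraries in Saa1, Lcn2 and Hp, and WT 3 (open diamond) is far below them in Col1a1, Lox and Mmp2 and above them in Elovl3.

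Of 14098 genes with enough reads to test, 1909 (13.5%) were higher and 1394 (9.89%) lower in NFE2L2_MET than in WT at an adjusted p under 0.05 in edgeR's quasi-likelihood test with Benjamini-Hochberg adjustment over all tested genes, the test behind every adjusted p below. The shares of 13.5% and 9.89% are the background for every list count below, and several lists lie near them. Changes of at least 2-fold were found in 945 genes upward (6.7%) and 310 downward (2.2%). The CPM ranges of the 2 groups did not overlap for 5238 genes (37.2%), with NFE2L2_MET above WT for 20.5% of tested genes and below it for 16.6%. With scaling to the total count in place of the trimmed mean, 1372 genes were higher and 2517 lower, so that 35.3% of the changed genes were higher against 57.8% in the main test. That scaling moved the median log2 fold change of all genes from -0.0043 to -0.13. The number of changed genes was 2137 without NFE2L2_MET 3, 2457 without both libraries high in acute phase genes, and 2115 when the spread was estimated from the 6 libraries alone.

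**Figure D2:**
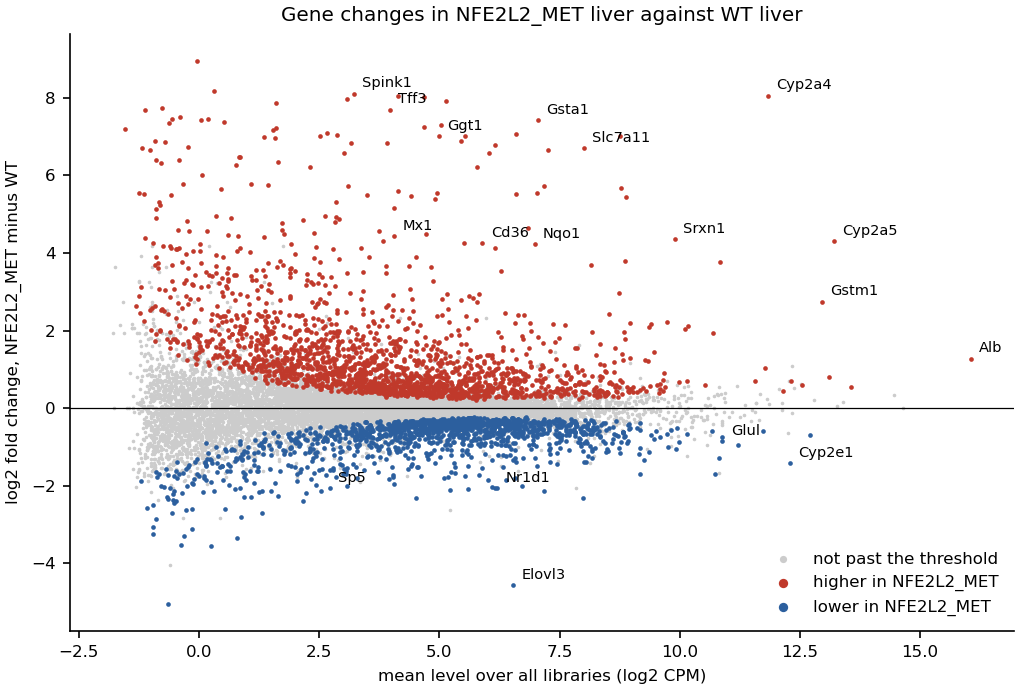
Each point is 1 of the 14098 tested genes, with its mean level over all 15 libraries (log2 CPM) against its log2 fold change, NFE2L2_MET minus WT. Red and blue points are the 1909 higher and 1394 lower genes, and the largest changes are upward.

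The mouse counterparts of the introduced genes were examined first. Human transgene reads map incompletely to the mouse gene, so these levels are no measure of transgene expression. Met was at 53.6, 96.05 and 78.1 CPM in WT and 86.4, 91.7 and 79.4 CPM in NFE2L2_MET, with all NFE2L2_MET values inside the WT range (log2 fold change 0.18 ± 0.15, adjusted p = 0.42). Nfe2l2 was at 56.7, 39.2 and 41.2 CPM in WT and 56.5, 53.3 and 54.9 CPM in NFE2L2_MET, again overlapping (log2 fold change 0.27 ± 0.20, adjusted p = 0.36). Ctnnb1, which was not introduced in these livers, was at 243, 259 and 295 CPM in WT and 355, 316 and 331 CPM in NFE2L2_MET (log2 fold change 0.33 ± 0.11, adjusted p = 0.0483). It passed the threshold narrowly and did not pass without any 1 of the libraries other than WT 3. Met and Nfe2l2 therefore did not mark the NFE2L2_MET libraries, whereas the NRF2 targets described below separated the groups.

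Genes whose mean CPM over the 15 libraries, as fitted by edgeR, was at least 3 on the log2 scale are called abundant below. That mean includes the NFE2L2_MET libraries, so Spink1 and Tff3, low in every other group, were abundant through those libraries alone. The choice of the largest rises is therefore partly set by this filter. Among abundant genes, the largest rises mixed detoxification enzymes, secreted peptides and keratin. Spink1, a trypsin inhibitor secreted by several tumours, was at 0, 0.0593 and 0.385 CPM in WT and 34.4, 36.2 and 59.6 CPM in NFE2L2_MET. The mucosal peptide Tff3 was at 0, 0.297 and 0.706 CPM and 66.9, 56.03 and 94.9 CPM. Both genes were near 0 in every WT library and above 30 CPM in every NFE2L2_MET library, with log2 fold changes of 8.10 ± 0.46 (adjusted p = 2.25e-08) and 7.69 ± 0.41 (adjusted p = 2.14e-08). Fitted changes of this size, against a few reads per WT library, depend on the prior count and are imprecise. The receptor-like kinase gene Styk1 went from 0.0719, 0.237 and 0.192 to 56.4, 31.1 and 52.8 CPM. Apela, which encodes a ligand of the apelin receptor, went from 0, 0.0593 and 0.192 to 24.5, 18.4 and 26.5 CPM. Tekt5, a sperm flagellum filament gene, went from 0.144, 0.178 and 0.257 to 54.6, 29.3 and 60.8 CPM. The basal keratin Krt5 went from 0, 0.178 and 0.513 to 55.7, 18.9 and 35.7 CPM. The log2 fold changes of these 4 genes lay between 7.24 and 8.03, with adjusted p-values from 3.02e-09 to 4.7e-06. The remaining 6 of the 12 largest rises were the predicted gene Gm3776 and Cyp2a4, Cyp2b13, Cyp2b9, Gsta1 and Tspan8, which are described with their families below.

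The largest falls were smaller in size. Avpr1a, the hepatic vasopressin receptor, was at 39.6, 43.2 and 64.4 CPM in WT and 10.96, 15.6 and 8.31 CPM in NFE2L2_MET (log2 fold change -2.08 ± 0.23, adjusted p = 2.3e-05). Nr1d1, which encodes the circadian repressor REV-ERB alpha, fell from 236, 107.8 and 137 to 38.95, 36.998 and 38.9 CPM (log2 fold change -2.07 ± 0.49, adjusted p = 0.0109). The kinase gene Sgk2 fell from 101.5, 57.3 and 142 to 36.5, 16.6 and 19.2 CPM, and the acyl-CoA synthetase gene Acss3 from 13.5, 11.6 and 15.9 to 7.01, 1.26 and 2.23 CPM. Their log2 fold changes were -2.05 ± 0.32 (adjusted p = 0.000776) and -1.95 ± 0.40 (adjusted p = 0.00406). These 4 falls passed the threshold when any 1 of the 6 libraries was left out, though Acss3 did not when the spread came from the 6 libraries alone. Elovl3 had the largest fitted fall, -4.55 ± 1.12 on the log2 scale (adjusted p = 0.0142), with 21.9, 15.8 and 9.28 CPM in NFE2L2_MET. Its call was lost without NFE2L2_MET 2 and without NFE2L2_MET 3, and WT 3 alone was above 900 CPM. With single libraries left out, its log2 fold change lay between -5.04 and -2.60. The other large falls were Mup7, Ces1e, Cyp4a32, Cyp26b1, Got1, Cyp2c50 and Etnppl, with log2 fold changes from -2.31 (Mup7) to -1.84 (Etnppl). Of these 7 only Cyp4a32 kept its call without each library in turn.

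Of 10 NRF2 regulators tested, 2 rose and 1 fell, near the 13.5% and 9.89% of all tested genes. Their median log2 fold change was 0.02 and lay between -0.02 and 0.12 when single libraries were left out. Keap1, the inhibitor of NRF2, was at 85.3, 82.6 and 81.01 CPM in WT and 80.2, 83.6 and 86.4 CPM in NFE2L2_MET (log2 fold change 0.01 ± 0.10, adjusted p = 0.968). Among the small MAF partners, Mafg fell from 70.97, 58.8 and 61.8 to 44.6, 35.5 and 36.4 CPM (log2 fold change -0.72 ± 0.11, adjusted p = 0.000325) and Mafk rose from 17.9, 18.8 and 17.7 to 30.1, 23.4 and 27.2 CPM (log2 fold change 0.57 ± 0.12, adjusted p = 0.00396). The other riser, the repressor gene Bach1, lost its call without WT 1, without WT 3 and without NFE2L2_MET 1.

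Of 13 genes of glutathione synthesis and cystine supply, 9 rose and 3 fell, against 13.5% and 9.89% of all tested genes, with a median log2 fold change of 1.05 against -0.0043 for all genes. Slc7a11, the cystine importer that limits glutathione synthesis, was at 1.94, 0.593 and 3.27 CPM in WT and 235, 122.6 and 245 CPM in NFE2L2_MET. NFE2L2_MET 2 was the lowest of the NFE2L2_MET libraries and still lay far above every WT library (log2 fold change 6.71 ± 0.50, adjusted p = 1.17e-06; chr3:50364936-50499087). Its partner chain Slc3a2 rose from 55.1, 51.7 and 60.996 to 124, 107.8 and 120.1 CPM. Gclc and Gclm encode the catalytic and modifier subunits of the rate-limiting ligase. Gclc rose from 300.3, 229.5 and 428 to 1419, 946 and 1601 CPM (log2 fold change 2.05 ± 0.22, adjusted p = 9.3e-06), whereas Gclm rose from 131, 163 and 143 to 253, 215 and 312 CPM (log2 fold change 0.84 ± 0.14, adjusted p = 0.000449). Ggt1, whose product breaks down extracellular glutathione and is a marker of altered hepatocyte foci, went from 0.288, 0.237 and 0.513 to 38.8, 43.4 and 53.9 CPM. It was under 1 CPM in all WT libraries and above 38 CPM in all NFE2L2_MET libraries (log2 fold change 7.01 ± 0.40, adjusted p = 5.16e-08). Gss and Gsr, for glutathione synthetase and reductase, rose by 1.03 ± 0.11 and 0.88 ± 0.16 on the log2 scale.

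Peroxide-removing enzymes that use glutathione moved apart. Gpx4, which reduces lipid peroxides and guards against ferroptosis, rose from 226, 207 and 224 to 558, 474 and 564 CPM (log2 fold change 1.28 ± 0.11, adjusted p = 1.25e-06), and the epithelial Gpx2 rose from 0, 0.0593 and 0.321 to 4.48, 5.26 and 7.33 CPM. Gpx1, the abundant cytosolic peroxidase, fell from 2488, 1827 and 2268 to 1312, 1311 and 1312 CPM (log2 fold change -0.74 ± 0.16, adjusted p = 0.00418). The other 2 falls were the enzymes that make cysteine from homocysteine. Cbs fell from 648, 500.2 and 716 to 285, 297 and 269.7 CPM and Cth from 151, 100.9 and 158 to 74.7, 59.02 and 80.2 CPM, both without overlap. Their log2 fold changes were -1.13 ± 0.18 (adjusted p = 0.000429) and -0.94 ± 0.19 (adjusted p = 0.00335). Transcripts for cystine import thus rose while those for cysteine synthesis fell.

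Glutathione S-transferases, which couple glutathione to electrophiles, gave 11 rises and 1 fall among 22 tested, with a median log2 fold change of 0.77. The alpha-class Gsta1 was at 1.22, 0.119 and 1.09 CPM in WT and 127, 96.9 and 182 CPM in NFE2L2_MET (log2 fold change 7.42 ± 0.41, adjusted p = 4.85e-08; chr9:78230669-78242683). In the mu class, Gstm1 rose from 1662, 639 and 1383 to 7369.7, 6900.0 and 10384 CPM, Gstm3 from 143, 44.6 and 143 to 1502, 1134 and 1894 CPM and Gstm4 from 65.001, 54.99 and 69.3 to 550.3, 329 and 591 CPM. WT 2 was the lowest library for each of these 3 genes and NFE2L2_MET 3 the highest, and no ranges overlapped. Their log2 fold changes were 2.74 ± 0.29, 3.78 ± 0.37 and 2.96 ± 0.19, with adjusted p-values of 7.82e-06, 6.76e-06 and 3.69e-08. Gstp2 rose from 8.92, 4.75 and 10.6 to 200.2, 144 and 254 CPM (log2 fold change 4.63 ± 0.26, adjusted p = 2.25e-08), while the closely related Gstp1 was at 1244, 468 and 878 and 1261, 1116 and 1499 CPM and did not pass with all libraries (adjusted p = 0.114), only without WT 1. Members of these families share sequence, so the division of reads between near-identical copies is uncertain. Gsta3, Gstm6, Gstm7, the theta class, Gstz1 and Mgst1 did not pass the test, and the single fall was the mitochondrial and peroxisomal Gstk1 (log2 fold change -0.71 ± 0.16, adjusted p = 0.0052).

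In the thioredoxin and peroxiredoxin system, 6 of 12 genes rose and 2 fell, with a median of 0.38. Srxn1, the sulfiredoxin that repairs over-oxidised peroxiredoxins, was at 34.8, 35.5 and 40.2 CPM in WT and 915, 446 and 905 CPM in NFE2L2_MET. Its 3 NFE2L2_MET values exceeded every WT value more than 10-fold (log2 fold change 4.36 ± 0.24, adjusted p = 9.2e-09). Txnrd1, the cytosolic thioredoxin reductase, rose from 142, 172 and 162 to 337, 248 and 346 CPM (log2 fold change 0.97 ± 0.14, adjusted p = 0.000167). Its relatives moved the other way: the mitochondrial Txnrd2 fell by 0.39 and Txnrd3 by 0.99 on the log2 scale (adjusted p = 0.00803 and 0.00248), though Txnrd2 did not pass on the counts of 1 strand. Prdx1 rose from 568, 449 and 598 to 837, 809 and 914 CPM (log2 fold change 0.66 ± 0.13, adjusted p = 0.0019). The calls of Txn1 and Prdx3 were lost without NFE2L2_MET 3.

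Quinone, carbonyl and epoxide reducing enzymes gave 9 rises among 19 tested and no fall, with a median of 0.55. Nqo1, the quinone reductase used most widely as a readout of NRF2, was at 5.896, 4.92 and 5.32 CPM in WT and 108.4, 73.8 and 119.7 CPM in NFE2L2_MET (log2 fold change 4.23 ± 0.19, adjusted p = 1.12e-09; chr8:107388225-107403205). The lowest NFE2L2_MET library was thus more than 10-fold above the highest WT library. Ptgr1, which reduces reactive alkenals and leukotrienes, went from 4.53, 5.16 and 4.75 to 247, 149 and 272 CPM, and the carbonyl reductase Cbr3 from 0.863, 0.831 and 2.12 to 132, 98.3 and 154 CPM. Their log2 fold changes were 5.53 ± 0.29 and 6.65 ± 0.35, each with an adjusted p of 2.14e-08. Cbr1 rose less, from 88.4, 73.3 and 69.5 to 394, 381 and 464 CPM (log2 fold change 2.42 ± 0.15, adjusted p = 2.58e-08). The aldehyde dehydrogenase Aldh3a1 rose by 4.87 ± 0.80 on the log2 scale (adjusted p = 0.000755). Akr1b8 and Akr1b10, aldo-keto reductases often listed as NRF2 targets, did not pass (log2 fold changes -0.39 ± 0.21 and 0.55 ± 0.31, adjusted p = 0.195 and 0.216). Without WT 2, and without NFE2L2_MET 1, 1 member of the list was called lower.

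NADPH-supplying enzymes gave 5 rises and 2 falls among 12 tested, with a median of 0.24. In the oxidative part of the pentose phosphate pathway, G6pdx rose from 8.92, 8.36 and 7.25 to 46.8, 31.1 and 51.2 CPM and Pgd from 41.8, 47.5 and 42.2 to 216, 132 and 234 CPM, without overlap. Their log2 fold changes were 2.40 ± 0.21 (adjusted p = 1.75e-06) and 2.15 ± 0.18 (adjusted p = 5.95e-07). Of the later enzymes of the pathway, the ribose phosphate isomerase Rpia rose from 3.67, 4.51 and 3.72 to 8.84, 8.98 and 10.998 CPM (log2 fold change 1.27 ± 0.16, adjusted p = 4.13e-05), and the sugar-rearranging Tkt and Taldo1 had log2 fold changes of 0.81 ± 0.15 for Tkt and 0.67 ± 0.12 for Taldo1. The 2 falls were Me1 and Idh1, which make NADPH in the cytosol by other routes. Malic enzyme, Me1, fell from 161, 106.7 and 166 to 84.7, 57.1 and 82.3 CPM (log2 fold change -0.95 ± 0.18, adjusted p = 0.00167). Isocitrate dehydrogenase, Idh1, fell from 402, 434 and 452 to 331, 247 and 298 CPM (log2 fold change -0.56 ± 0.12, adjusted p = 0.00309).

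Glucuronidation and efflux genes gave 11 rises and no fall among 19 tested, with a median of 0.78. Ugp2 and Ugdh make the glucuronic acid donor. Ugdh rose from 147, 136 and 174 to 768, 460.2 and 826 CPM and Ugp2 from 185, 121.5 and 261 to 911, 684 and 1009 CPM, with log2 fold changes of 2.17 ± 0.18 and 2.20 ± 0.23 (adjusted p = 6.62e-07 and 7.82e-06). The conjugate exporter Abcc4 was at 3.67, 1.42 and 4.75 CPM in WT and 174, 95.95 and 228 CPM in NFE2L2_MET (log2 fold change 5.67 ± 0.45, adjusted p = 1.48e-06). Abcc5 rose from 9.204, 7.24 and 6.86 to 64.999, 42.3 and 60.1 CPM and the drug exporter Abcb1a from 1.08, 2.14 and 1.92 to 13.6, 5.06 and 11.2 CPM. Of the transferases themselves, Ugt2b35 rose by 1.25 ± 0.15 on the log2 scale, while the bilirubin transferase Ugt1a1 did not pass (adjusted p = 0.999).

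Haem and iron genes gave 4 rises and no fall among 15 tested. Hmox1, the haem oxygenase that is a textbook NRF2 target, was at 35.02, 23.8 and 25.1 CPM in WT and 38.8, 47.9 and 43.3 CPM in NFE2L2_MET. The groups did not overlap, but the rise was small (log2 fold change 0.63 ± 0.20, adjusted p = 0.0306) and lost its call without any 1 of WT 2, WT 3, NFE2L2_MET 2 and NFE2L2_MET 3. The biliverdin reductase Blvrb rose from 116.6, 110.2 and 126 to 353, 297 and 384 CPM (log2 fold change 1.55 ± 0.12, adjusted p = 4.65e-07), and the ferritin heavy chain Fth1 from 1500.1, 1309 and 1351 to 2918, 2423 and 3171 CPM (log2 fold change 1.03 ± 0.19, adjusted p = 0.00122). Without NFE2L2_MET 3, the number of rises in this list was 2, and without WT 3 or NFE2L2_MET 2, 1 member was called lower.

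**Figure D3:**
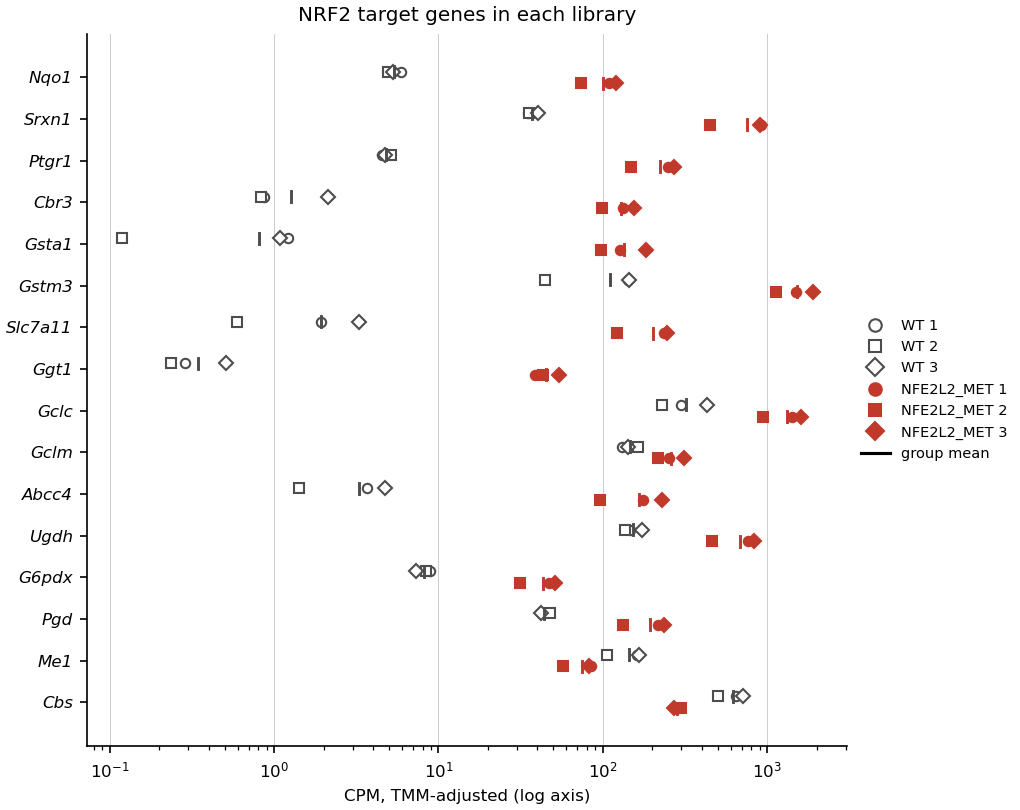
CPM of 16 NRF2-related genes in each of the 6 libraries on a log axis, WT open and NFE2L2_MET filled, with group means as vertical ticks. The groups are separate in all 16 genes, with Me1 and Cbs lower in NFE2L2_MET and the other 14 higher; NFE2L2_MET 2 (filled square) is the lowest filled point in most of the 14.

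The promoters of these genes were searched for the core letters of an antioxidant response element, TGACNNNGC, on either strand, and for the extended form TGACTCAGC, which also holds the letters of an AP-1 site, TGACTCA. The windows ran from 250 bases before to 50 after each annotated start, with RefSeq sequences of GRCm38.p6. Of the members of the 7 NRF2 lists, 13 that rose held a match, and 5 of them, chosen after their values were seen, are shown as examples from the thioredoxin, quinone, NADPH and glucuronidation lists. Me1 is shown because it was the 1 member that fell with a match. Capitals mark the matching letters, written 5′ to 3′ on the strand of the gene.
Prdx1, chr4:116685440-116685500, plus strand: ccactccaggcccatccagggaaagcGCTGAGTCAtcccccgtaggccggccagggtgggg
Htatip2, chr7:49759437-49759497, plus strand: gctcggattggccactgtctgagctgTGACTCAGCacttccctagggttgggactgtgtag
Txnrd1, chr10:82859088-82859148, plus strand: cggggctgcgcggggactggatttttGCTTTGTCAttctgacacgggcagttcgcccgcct
Ugdh, chr5:65435902-65436000, minus strand: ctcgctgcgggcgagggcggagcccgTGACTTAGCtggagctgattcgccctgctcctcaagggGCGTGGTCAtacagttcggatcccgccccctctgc
G6pdx, chrX:74428903-74428963, minus strand: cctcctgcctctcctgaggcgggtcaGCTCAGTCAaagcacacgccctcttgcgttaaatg
Me1, chr9:86695912-86695946, minus strand: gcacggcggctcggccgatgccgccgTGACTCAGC
The matches in Prdx1, Htatip2 and Me1 are the extended form, and they begin 133, 49 and 6 bases before the start that the promoter table uses. For Htatip2, as for Txnrd1, that start belongs to a transcript that begins inside the annotated span of the gene. Me1 fell although its window holds that form, and Htatip2, a short-chain reductase gene, rose from 33.7, 21.001 and 26.3 to 59.6, 60.3 and 73.1 CPM (log2 fold change 1.26 ± 0.14, adjusted p = 1.66e-05).

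The core letters were common in promoters of all kinds: 14% of the 27025 genes of the table held them. Among tested genes with a promoter entry, they were found in 272 of 1453 that rose (18.7%), 180 of 1081 that fell (16.7%) and 1359 of 8169 that did not pass (16.6%). For the 113 genes of the 7 NRF2 lists, 96 had an entry and 21 held the letters (21.9%), among them 13 of 47 that rose and 7 of 42 that did not pass. The extended form was rarer, at 20 of 1453 genes that rose (1.38%), 5 of 1081 that fell (0.463%) and 35 of 8169 that did not pass (0.428%). These shares are descriptions, and a match is not a bound site. The windows of Nqo1, Slc7a11, Gsta1, Gstm3 and Cbr3 held no match, which says only that these letters are not within this window.

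Proteasome subunits, which NRF2 and its relative NFE2L1 can both induce, did not follow the other lists: 12 of 32 were lower, 1 was higher and the median was -0.18. Psmd3 fell from 128, 128 and 128 to 93.3, 89.97 and 94.2 CPM (log2 fold change -0.47 ± 0.10, adjusted p = 0.00294). The exception was the catalytic subunit Psmb5, which rose from 25.9, 22.2 and 28.7 to 42.7, 38.9 and 40.7 CPM (log2 fold change 0.67 ± 0.10, adjusted p = 0.000139). The count of falls was 5 without NFE2L2_MET 3 and 6 without NFE2L2_MET 2, and 19 with total-count scaling.

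MET signalling was examined through the receptor's partners and the genes that ERK activity induces. Of 17 receptor and adaptor genes, 2 fell, against 9.89% of all tested genes, and 1 rose, against 13.5%, namely Hgfac. It encodes the protease that activates hepatocyte growth factor and was at 133, 135 and 109.3 CPM in WT and 233, 276 and 281 CPM in NFE2L2_MET, without overlap (log2 fold change 1.06 ± 0.13, adjusted p = 4.11e-05). Hgf itself was at 3.52, 2.79 and 5.45 and 5.304, 3.79 and 4.697 CPM (adjusted p = 0.552). The calls of the 2 that fell, Plxnb2 and Erbb3, were lost without WT 3 and without NFE2L2_MET 3. In the ERK output list, 7 of 24 rose and none fell, against 13.5% and 9.89% of all genes, with a median of 0.08 that was 0.24 without WT 1, 0.21 without WT 3, 0.28 without NFE2L2_MET 2 and 0.18 without NFE2L2_MET 3. The rises included phosphatases and other feedback inhibitors. Dusp6, which switches off ERK, rose from 24.02, 15.1 and 23.9 to 77.2, 66.9 and 101.5 CPM (log2 fold change 1.96 ± 0.25, adjusted p = 0.0001). Dusp4 rose from 3.38, 2.02 and 3.399 to 24.8, 18.9 and 22.2 CPM (log2 fold change 2.91 ± 0.25, adjusted p = 1.17e-06), and the inhibitor Spred1 from 13.7, 13.5 and 14.5 to 21.2, 20.6 and 27.04 CPM (log2 fold change 0.72 ± 0.14, adjusted p = 0.00145). The Sprouty genes and Etv1, Etv4 and Etv5 did not pass, with log2 fold changes from -0.18 (Spry4) to 1.30 (Etv4). Myc was high in 1 library, at 38.1, 8.05 and 10.998 CPM in NFE2L2_MET against 3.81, 8.899 and 3.399 CPM in WT, and its call was lost without WT 1, without WT 3 and without NFE2L2_MET 1. The list's rises numbered 4 without WT 1 and 4 without NFE2L2_MET 1, where 1 member was called lower.

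Direct beta-catenin targets and pericentral genes gave more falls than rises. Of 14 direct targets, 5 fell and none rose, with a median of -0.47. The falls numbered 5 without each of the 6 libraries in turn, and 8 with total-count scaling. They numbered 4 among 11 tested with the 6 libraries alone, and 4 without both WT 2 and NFE2L2_MET 2. Axin2, the feedback scaffold that reports Wnt signalling, was at 9.49, 6.05 and 11.4 CPM in WT and 4.95, 5.19 and 2.35 CPM in NFE2L2_MET (log2 fold change -1.11 ± 0.26, adjusted p = 0.00687), and did not pass when the spread came from the 6 libraries alone. The transcription factor Sp5 fell from 2.59, 1.42 and 2.18 to 0.589, 0.532 and 0.344 CPM (log2 fold change -2.06 ± 0.30, adjusted p = 0.000201), and Notum, a secreted Wnt inhibitor, from 48.8, 46.98 and 54.3 to 31.6, 26.8 and 25.8 CPM (log2 fold change -0.83 ± 0.13, adjusted p = 0.000284). No ranges overlapped for these 3 genes. Of 18 pericentral genes, 13 fell and 1 rose, with a median of -0.83. These falls numbered 9 without NFE2L2_MET 3 and 10 with the 6 libraries alone. Glul, the glutamine synthetase of the last cells before the central vein, fell from 594, 594 and 512 to 345, 334 and 261 CPM (log2 fold change -0.86 ± 0.15, adjusted p = 0.00075). Cyp2e1, the ethanol and paracetamol oxidising P450, fell from 8076, 6639.8 and 7646 to 3628, 2544 and 2215 CPM (log2 fold change -1.41 ± 0.24, adjusted p = 0.00064). Ornithine aminotransferase, Oat, fell from 517, 346 and 513 to 263, 198 and 147 CPM and the phosphatase gene Lhpp from 50.6, 49.1 and 58.9 to 24.5, 22.2 and 13.9 CPM. Every NFE2L2_MET value of Glul, Cyp2e1, Oat and Lhpp lay below every WT value. The list's 1 rise was Slc1a4, a carrier of serine and other neutral amino acids, from 6.399, 5.102 and 5.26 to 68.3, 39.5 and 86.5 CPM (log2 fold change 3.54 ± 0.29, adjusted p = 1.45e-06). Cyp1a2 and Rhbg, also pericentral, did not pass (adjusted p = 0.702 and 0.905).

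Of 19 periportal genes tested, 5 rose and 3 fell, with a median of -0.07. Aldh1b1 rose from 120.4, 99.01 and 99.2 to 273, 274 and 380.0 CPM (log2 fold change 1.54 ± 0.17, adjusted p = 9.16e-06), and albumin, Alb, from 43888, 45198 and 63513 to 100810, 129500 and 140100 CPM (log2 fold change 1.28 ± 0.20, adjusted p = 0.000408). Cyp2f2 and the urea cycle gene Cps1 did not pass (log2 fold changes 0.06 ± 0.44 and -0.70 ± 0.36, adjusted p = 0.944 and 0.178). The number of periportal falls was 1 without WT 3, without NFE2L2_MET 1 and without NFE2L2_MET 3.

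Cytochrome P450 genes moved in both directions. Of 34 P450 genes and regulators, 7 rose and 8 fell, against 13.5% and 9.89% of all tested genes. Cyp2a5, the coumarin hydroxylase of mouse liver, was at 737, 225 and 431 CPM in WT and 9073, 6825 and 11508 CPM in NFE2L2_MET (log2 fold change 4.30 ± 0.36, adjusted p = 9.85e-07; chr7:26835339-26843264), and was among the most abundant P450 transcripts there. Its neighbour Cyp2a4, a testosterone hydroxylase higher in females, was at 11.6, 11.2 and 54.1 CPM and 6271, 5689 and 8451 CPM (log2 fold change 8.05 ± 0.62, adjusted p = 1.25e-06). The female-typical Cyp2b9 rose from 0.431, 0.475 and 1.15 to 86.98, 86.9 and 97.5 CPM (log2 fold change 7.02 ± 0.32, adjusted p = 4.17e-09) and Cyp2b13 from 0, 0 and 0.449 to 40.96, 29.6 and 55.1 CPM (log2 fold change 8.05 ± 0.83, adjusted p = 3.36e-05). Cyp2b10, the classic target of the nuclear receptor CAR in the same subfamily, was at 2.73, 2.49 and 30.4 and 5.83, 2.33 and 3.32 CPM and did not pass (adjusted p = 0.207). The Cyp2a and Cyp2b copies are alike, so reads between Cyp2a4 and Cyp2a5 in particular may be divided wrongly. Among the falls, Cyp2c38 went from 24.7, 10.6 and 14.2 to 6.07, 5.72 and 5.33 CPM (log2 fold change -1.52 ± 0.28, adjusted p = 0.00203) and the aryl hydrocarbon receptor, Ahr, from 20.7, 22.9 and 28.2 to 13.2, 12.4 and 13.7 CPM (log2 fold change -0.87 ± 0.16, adjusted p = 0.00156). The count of falls was 5 without WT 1 and 4 without WT 3, without NFE2L2_MET 2 and without NFE2L2_MET 3.

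The growth hormone axis and sex-biased genes gave 6 rises and 8 falls among 28 tested, against 13.5% and 9.89% of all tested genes. Ghr, the growth hormone receptor, fell from 553, 448 and 487 to 241, 194 and 254 CPM (log2 fold change -1.11 ± 0.26, adjusted p = 0.00784). Igf1, its main hepatic output, fell from 787, 753 and 599 to 331, 429 and 386 CPM (log2 fold change -0.90 ± 0.23, adjusted p = 0.0128), a call that was lost without NFE2L2_MET 1. No NFE2L2_MET value reached a WT value in either gene. All animals were male, and the rises included the genes Cyp2a4 and Cyp2b9, which female liver expresses more. The falls numbered 4 without WT 1 or WT 2, 5 without WT 3, 3 without NFE2L2_MET 1 and 2 without NFE2L2_MET 2 or NFE2L2_MET 3.

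Of 19 bile acid genes tested, 8 fell and 2 rose, with a median of -0.74. Abcb11, the bile salt export pump, fell from 433, 433 and 615 to 288, 184 and 221 CPM (log2 fold change -1.09 ± 0.19, adjusted p = 0.00069). The uptake carrier Slco1b2 fell from 1149, 1104 and 1312 to 714, 513 and 497 CPM (log2 fold change -1.05 ± 0.21, adjusted p = 0.00216), and the alternative-pathway enzyme Cyp27a1 from 618, 404 and 649 to 346, 259 and 214 CPM (log2 fold change -1.03 ± 0.20, adjusted p = 0.00169). Cyp7a1, the rate-limiting enzyme of the classic pathway, was at 34.7, 128 and 37.5 and 139, 53.9 and 84.8 CPM with overlapping ranges (adjusted p = 0.592). The falls numbered 5 without WT 3 and without NFE2L2_MET 2. The rises numbered none without WT 1 or NFE2L2_MET 3 and 1 without WT 2, WT 3 or NFE2L2_MET 1.

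In fatty acid synthesis, 2 of 18 rose and 5 fell, against 13.5% and 9.89% of all tested genes. Acaca, the acetyl-CoA carboxylase of lipogenesis, rose from 60.3, 81.5 and 66.3 to 135, 145 and 144 CPM (log2 fold change 1.02 ± 0.13, adjusted p = 3.51e-05), and the lipase Pnpla3 from 0.431, 0.831 and 0.257 to 4.71, 3.86 and 10.7 CPM (log2 fold change 3.63 ± 0.48, adjusted p = 7.21e-05). The elongase and desaturase of polyunsaturated fatty acids were lower: Elovl5 fell from 328, 284 and 327 to 126, 97.7 and 120.6 CPM (log2 fold change -1.45 ± 0.22, adjusted p = 0.00038) and Fads1 from 729, 916 and 559 to 447, 379 and 394 CPM (log2 fold change -0.85 ± 0.16, adjusted p = 0.00183). Without WT 2, 4 members rose, and without both WT 2 and NFE2L2_MET 2, 5. Of 23 genes of PPAR alpha and fatty acid oxidation, 3 rose and 7 fell, and the falls numbered 4 without NFE2L2_MET 2 and without NFE2L2_MET 3. The fatty acid transporter Cd36 was at 4.53, 5.64 and 7.31 CPM in WT and 103.4, 94.1 and 139 CPM in NFE2L2_MET (log2 fold change 4.26 ± 0.27, adjusted p = 1e-07). Fgf21, a hormone of fasting and stress, rose from 1.87, 3.38 and 1.54 to 10.96, 15.6 and 11.9 CPM (log2 fold change 2.48 ± 0.50, adjusted p = 0.00356). Fabp1, the liver fatty acid binding protein, fell from 4470.2, 3789 and 3758 to 2524, 1732 and 1967 CPM (log2 fold change -0.95 ± 0.23, adjusted p = 0.00757). In cholesterol synthesis 5 of 20 fell and none rose, with a median of -0.46, but without WT 2 and NFE2L2_MET 2 there were 3 rises and 1 fall with a median of 0.13, and with the 6 libraries alone 1 fell. Insig1, the sensor that holds back SREBP, fell from 317, 369 and 226 to 157, 93.8 and 155 CPM (log2 fold change -1.17 ± 0.23, adjusted p = 0.00225). That count was 3 without WT 2 or NFE2L2_MET 2 and 8 without WT 3, and 2 members rose without WT 2.

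Amino acid breakdown gave 8 falls and no rise among 23 tested, with a median of -0.53, or -0.33 without WT 1. Dpyd, which degrades pyrimidines and shares this list, fell from 467, 382 and 426 to 267, 273 and 207 CPM (log2 fold change -0.77 ± 0.17, adjusted p = 0.00518). Prodh2, the hydroxyproline dehydrogenase, fell from 372, 282 and 262 to 199, 211 and 203 CPM (log2 fold change -0.58 ± 0.14, adjusted p = 0.00799). The other 6 falls did not all pass without single libraries: the count was 4 without WT 1, WT 3 or NFE2L2_MET 2 and 2 without NFE2L2_MET 3. Among 17 hepatocyte transcription factors, 3 fell and none rose, against 9.89% and 13.5% of all tested genes. Hnf4a, the factor that sustains hepatocyte identity, was at 959, 743 and 1090.3 and 681, 782 and 640.5 CPM (log2 fold change -0.41 ± 0.15, adjusted p = 0.0543) and passed as lower in DESeq2, with RLE or total-count scaling and without WT 2 or NFE2L2_MET 2, and Onecut2 fell from 93.9, 127 and 96.3 to 59.3, 64.5 and 48.2 CPM (log2 fold change -0.88 ± 0.17, adjusted p = 0.00183). Without WT 2, 3 of these factors were called higher and 5 lower.

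Oncofetal and tumour marker genes gave 10 rises and 1 fall among 21 tested, with a median of 1.43. Rises numbered 9 or 10 when single libraries were left out, but the median was 0.49 without NFE2L2_MET 2 and 0.88 to 0.99 without any 1 WT library. Alpha-fetoprotein, Afp, the serum marker of hepatocellular carcinoma, was at 2.37, 3.14 and 9.36 CPM in WT and 300.5, 132 and 214 CPM in NFE2L2_MET (log2 fold change 5.44 ± 0.56, adjusted p = 2.77e-05). The surface proteoglycan Gpc3 rose from 0.935, 1.19 and 3.34 to 117.9, 62.02 and 109.0 CPM (log2 fold change 5.71 ± 0.52, adjusted p = 9.62e-06) and the Golgi protein Golm1 from 3.38, 2.67 and 2.95 to 60.99, 46.4 and 64.3 CPM (log2 fold change 4.26 ± 0.15, adjusted p = 2.14e-10). WT 3 was the highest WT library for Afp and Gpc3, still more than 10-fold below the lowest NFE2L2_MET library. The imprinted fetal genes H19 and Igf2 did not pass: H19 was at 10.6, 10.6 and 1.35 and 10.4, 4.06 and 8.19 CPM and Igf2 at 2.66, 1.36 and 1.796 and 1.59, 0.799 and 1.09 CPM (adjusted p = 0.989 and 0.215). Without WT 3, 3 members were called lower.

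Epithelial adhesion and keratin genes gave 11 rises and no fall among 22 tested, with a median of 0.83. Epcam, an adhesion molecule of progenitor cells and bile ducts, rose from 0.647, 0.534 and 1.15 to 39.3, 30.3 and 43.8 CPM (log2 fold change 5.59 ± 0.34, adjusted p = 5.16e-08), and Tspan8 from 0.288, 0.356 and 1.67 to 164, 75.9 and 131 CPM (log2 fold change 7.30 ± 0.58, adjusted p = 3.46e-06). The hepatocyte keratin Krt8 rose from 200.2, 249.6 and 269 to 651, 579 and 724 CPM (log2 fold change 1.44 ± 0.16, adjusted p = 1.35e-05). Krt19, Krt7 and Sox9, which mark bile ducts, did not pass: Krt19 was at 0.863, 1.25 and 1.09 and 1.24, 1.26 and 1.15 CPM, Krt7 at 0.791, 0.712 and 0.641 and 0.707, 0.266 and 0.687 CPM, and Sox9 at 15.96, 16.4 and 6.93 and 10.6, 12.04 and 15.6 CPM (adjusted p = 0.771, 0.74 and 0.937). Of 10 cholangiocyte markers tested, 4 rose (Krt8, Krt18, Epcam and Tspan8), against 13.5% of all tested genes. The summed level of the whole list was 509.97 to 583.8 CPM in WT and 1075 to 1338 CPM in NFE2L2_MET. Krt8 alone held 200.2 to 269 CPM of it in WT and 579 to 724 CPM in NFE2L2_MET, so the sum is no measure of bile duct cells. Without WT 2 or WT 3, 1 adhesion gene was called lower, and without WT 3 so was 1 cholangiocyte marker.

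Genes of the cell cycle and DNA replication gave 15 rises and no fall among 32 tested, with a median of 0.68, at low levels. Without NFE2L2_MET 3 there were 11 rises and the median was 0.37. Mki67, the proliferation antigen, was at 3.81, 3.08 and 2.76 CPM in WT and 6.78, 5.32 and 8.36 CPM in NFE2L2_MET (log2 fold change 1.09 ± 0.25, adjusted p = 0.00597). The ribonucleotide reductase subunit Rrm2 rose from 4.82, 4.27 and 6.35 to 10.5, 10.3 and 16.4 CPM (log2 fold change 1.27 ± 0.20, adjusted p = 0.000329), and the replication licensing gene Mcm3 from 3.74, 3.86 and 4.94 to 9.61, 6.52 and 10.9 CPM (log2 fold change 1.11 ± 0.20, adjusted p = 0.00117). Groups did not overlap in these 3 genes. The mitotic genes Ccnb1 and Plk1 did not pass, with Ccnb1 at 1.73, 0.771 and 1.09 and 1.36, 0.732 and 2.46 CPM and Plk1 at 1.87, 2.14 and 1.35 and 2.24, 1.597 and 1.66 CPM (adjusted p = 0.551 and 0.936). Ccnd1, the D cyclin downstream of both growth factor and Wnt signals, was at 66.3, 52.4 and 51.6 and 49.2, 59.2 and 47.7 CPM (adjusted p = 0.667).

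Of 17 macrophage markers, 14 rose and none fell, with a median of 1.04, and their summed level was 431.5 to 494.6 CPM in WT and 757 to 838.9 CPM in NFE2L2_MET. C1qb, a complement subunit made by macrophages, rose from 23.2, 28.2 and 27.5 to 58.6, 66.6 and 59.6 CPM (log2 fold change 1.23 ± 0.15, adjusted p = 3.47e-05), and the lysozyme Lyz2 from 24.1, 30.97 and 43.3 to 114.97, 102.5 and 136 CPM (log2 fold change 1.84 ± 0.23, adjusted p = 7.64e-05). The Kupffer cell genes Cd5l and Vsig4 rose by 1.09 ± 0.19 and 0.82 ± 0.19 on the log2 scale, and Ccr2, the receptor of recruited monocytes, rose from 0.3595, 0.712 and 0.449 to 3.06, 2.79 and 1.66 CPM (log2 fold change 2.27 ± 0.48, adjusted p = 0.00366). Of the 8 tested T and NK cell markers none passed, in edgeR at an adjusted or an unadjusted p under 0.05 or in DESeq2, and the summed level of the whole list was 5.16 to 5.77 CPM in WT and 5.52 to 7.9 CPM in NFE2L2_MET. All 3 tested neutrophil markers rose, with a sum of 1.73 to 6.35 CPM in WT and 8.88 to 28.5 CPM in NFE2L2_MET, but 1 rose without NFE2L2_MET 2. That library had the highest level of S100a9, a granulocyte calcium-binding protein, at 3.77, 13.3 and 3.61 CPM in NFE2L2_MET. Endothelial markers gave 5 rises among 14, and 3 without any 1 of the libraries other than WT 3. Without WT 3, 1 macrophage marker was called lower.

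Interferon-responsive genes rose in 18 of 23 cases with no fall, and had a median of 1.28. Mx1, an antiviral GTPase, was at 0.216, 0.475 and 0.257 CPM in WT and 7.37, 3.66 and 10.1 CPM in NFE2L2_MET (log2 fold change 4.43 ± 0.47, adjusted p = 1.71e-05). Iigp1, an immunity-related GTPase at a higher level, rose from 245, 279 and 246 to 563, 547 and 643 CPM (log2 fold change 1.19 ± 0.17, adjusted p = 0.000183), and the T cell attractant Cxcl9 from 2.09, 1.19 and 2.63 to 15.7, 9.52 and 31.8 CPM (log2 fold change 3.28 ± 0.48, adjusted p = 0.000503). Chemokine and checkpoint genes gave 9 rises and 1 fall among 22. The macrophage chemokine Ccl9 rose from 57.7, 53.4 and 65.3 to 135, 141 and 178 CPM (log2 fold change 1.36 ± 0.12, adjusted p = 9.56e-07), and the inhibitory ligand Vtcn1 from 0.431, 0.119 and 1.09 to 2.89, 2.595 and 2.69 CPM (log2 fold change 2.32 ± 0.42, adjusted p = 0.00125).

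Antigen presentation genes gave 11 rises and no fall among 17. Cd74, the invariant chain of class II molecules, rose from 53.4, 33.99 and 44.7 to 136, 98.2 and 113.2 CPM (log2 fold change 1.39 ± 0.26, adjusted p = 0.00199), and the class II regulator Ciita from 0.863, 0.949 and 0.962 to 4.01, 2.26 and 3.67 CPM (log2 fold change 1.84 ± 0.36, adjusted p = 0.00216). B2m, the light chain of class I, was at 1264, 1095 and 1180.4 and 1125, 1138 and 1260.3 CPM (adjusted p = 0.977). Macrophage markers moved with these lists, and their part in the interferon and class II results was not tested.

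Matrix counts moved with the libraries used. Of 27 tested, 9 fell and 3 rose. Lox, the collagen cross-linking oxidase, was at 194, 191 and 51.7 CPM in WT and 52.9, 51.5 and 46.5 CPM in NFE2L2_MET, and the protease Mmp2 at 24.4, 23.4 and 5.13 and 5.07, 5.32 and 5.04 CPM. For both, WT 3 lay within the NFE2L2_MET range and the other WT libraries far above it. The falls numbered 1 without WT 1, 3 without WT 2, 12 without WT 3, 5 without NFE2L2_MET 1, 5 without NFE2L2_MET 2 and 3 without NFE2L2_MET 3, and 2 without both libraries high in acute phase genes. The laminin chain Lama5 rose from 4.602, 4.27 and 4.105 to 15.7, 8.98 and 12.8 CPM (log2 fold change 1.54 ± 0.24, adjusted p = 0.000322), and Timp2 fell from 41.8, 39.03 and 25.6 to 21.2, 20.6 and 20.4 CPM (log2 fold change -0.77 ± 0.19, adjusted p = 0.00902). Lama5 passed without each library in turn and without both libraries high in acute phase genes, whereas Timp2 did not pass without both.

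The acute phase list gave 2 rises among 19 with all libraries, near the 13.5% of all tested genes. Rises numbered 12 without WT 2, 1 without WT 3, and none without WT 1 or NFE2L2_MET 2. Without WT 1, 1 member was called lower. Without both WT 2 and NFE2L2_MET 2, the list gave 11 rises. Saa1 then had a log2 fold change of 3.62 and Orm2, an acid glycoprotein, of 2.26, against -0.09 and -0.26 with all libraries.

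**Figure D4:**
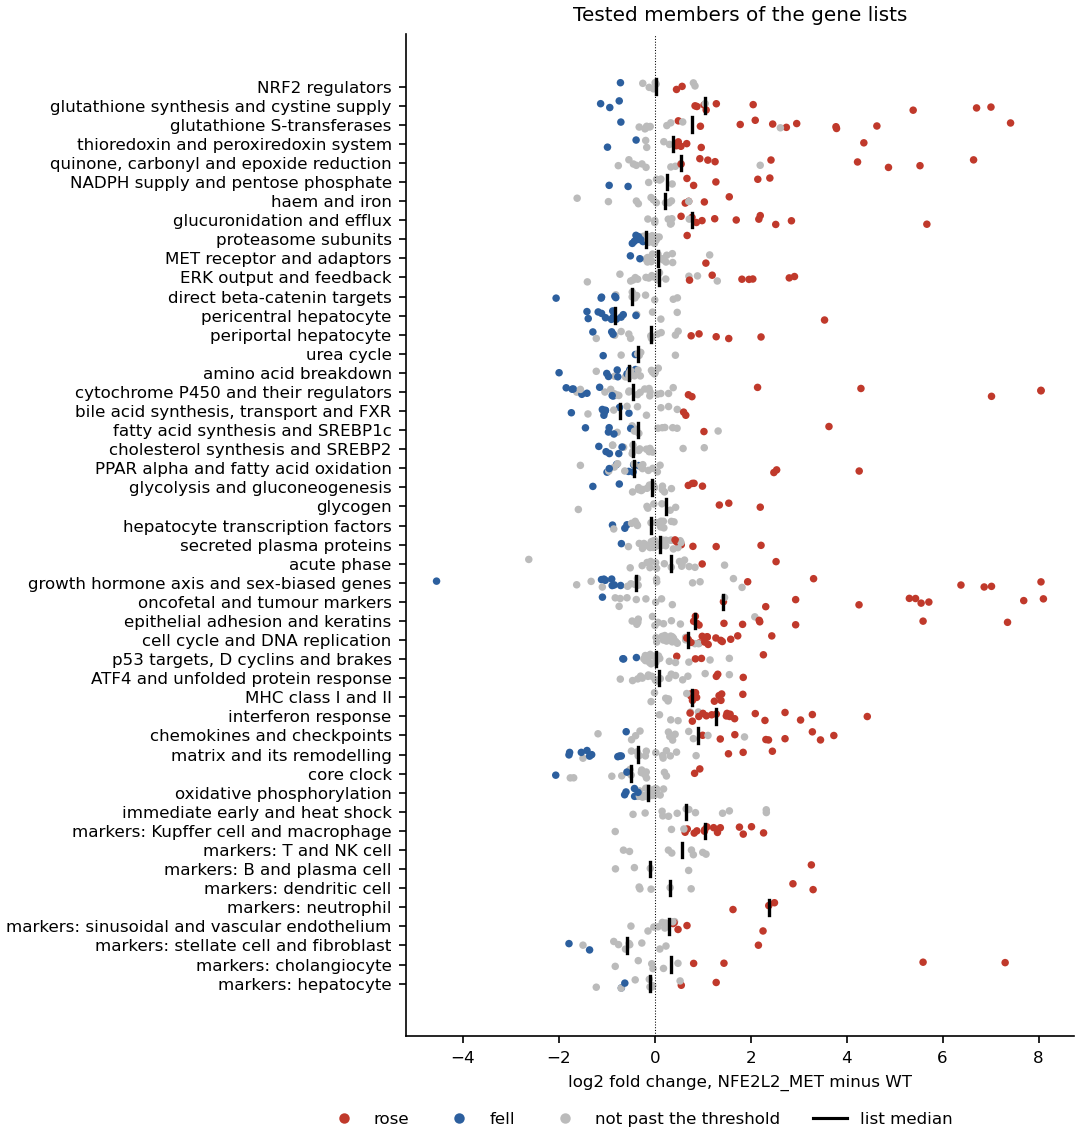
Log2 fold changes, NFE2L2_MET minus WT, of the tested members of the gene lists (points, red rose, blue fell, grey not past the threshold) with each list's median as a black bar; vertical scatter is for display. Medians are 1.05 for glutathione synthesis and 1.28 for the interferon response, and -0.83 for pericentral and -0.18 for proteasome genes.

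NFE2L2_MET livers were also set against the 3 other models, each carrying S45Y-CTNNB1: with human MET (CTNNB1_MET), with G31A-NFE2L2 (CTNNB1_NFE2L2) or with both (CTNNB1_NFE2L2_MET), 3 libraries each. Direct tests gave 2018 genes that differed from CTNNB1_MET (14.3%), with 7.36% of tested genes higher and 6.96% lower in NFE2L2_MET. From CTNNB1_NFE2L2 5239 differed (37.2%), with 18.9% higher and 18.3% lower, and from CTNNB1_NFE2L2_MET 4325 differed (30.7%), with 14.3% higher and 16.4% lower. The first count was 1343 without CTNNB1_MET 2. With total-count scaling the last was 6928, of which 795 were higher and 6133 lower in NFE2L2_MET, and the same scaling gave 1135 higher and 5154 lower against CTNNB1_NFE2L2 and 682 higher and 1434 lower against CTNNB1_MET. Of the 1909 genes that rose over WT, 639 were also higher than in CTNNB1_MET and 87 lower. All these comparisons share the NFE2L2_MET libraries. Among abundant genes that rose over WT, the 6 with the largest excess over CTNNB1_MET were Spink1, Slc45a1, Apela, Styk1, Ggt1 and the predicted gene Gm10639. Their differences on the log2 scale ran from 5.65 ± 0.37 (Gm10639) to 7.34 ± 0.43 (Spink1). Spink1 and Slc45a1 averaged at most 2.94 CPM in any other group and were abundant only through the NFE2L2_MET libraries. Their place in this ranking is thus partly set by the filter. Of abundant genes that fell, the 6 farthest below CTNNB1_MET were Cyp2c39, Lect2, Nkd1, Slc13a3, Avpr1a and Tcf7, from -3.63 ± 0.24 (Cyp2c39) to -2.75 ± 0.21 (Tcf7). Nkd1 and Tcf7 are themselves beta-catenin target genes. The calls of Slc13a3 and Tcf7 against WT were lost without WT 2 or without other single libraries, and those of Slc22a3 and Pcp4l1, named next, without WT 1 or NFE2L2_MET 2. Against CTNNB1_NFE2L2, the 6 genes upward by the same rule were Spink1, Tspan8, 5330417C22Rik, Cyp2b9, Cyp2b13 and Slc45a1. The 6 genes downward were Nkd1, Slc22a3, Cyp2c38, Cyp2c39, Pcp4l1 and Slc1a2. Like Spink1 and Slc45a1, 5330417C22Rik was abundant only through the NFE2L2_MET libraries.

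In total, 138 genes (0.979% of those tested) were higher in NFE2L2_MET than in WT and in each of the 3 other models. Tff3 was at 1.47, 1.35 and 2.25 CPM in CTNNB1_MET, 1.88, 1.15 and 1.28 CPM in CTNNB1_NFE2L2 and 2.56, 2.16 and 2.14 CPM in CTNNB1_NFE2L2_MET. All 9 values were below 4 CPM, against more than 50 CPM in each NFE2L2_MET library. Spink1 showed the same order, with at most 1.996 ± 0.359 CPM (mean ± SD, n = 3, as for the levels below) in CTNNB1_NFE2L2_MET against 43.4 ± 14.1 CPM in NFE2L2_MET. The sugar transporter Slc45a1 was at 40.4 ± 4.698 CPM in NFE2L2_MET and 2.94 ± 0.877 CPM in CTNNB1_NFE2L2_MET, its highest level elsewhere. Tspan8, a tetraspanin of tumour and biliary cells, was at 124 ± 44.5 CPM and 28.8 ± 15.5 CPM in the same groups. The differences from CTNNB1_NFE2L2_MET were 4.99 ± 0.31 for Tff3, 4.43 ± 0.32 for Spink1, 3.78 ± 0.30 for Slc45a1 and 2.10 ± 0.40 for Tspan8 on the log2 scale (adjusted p = 1.57e-07, 3.19e-07, 4.92e-07 and 0.00185). Gldc, the glycine decarboxylase, was at 416 ± 110.5 CPM in NFE2L2_MET, 150.1 ± 65.9 CPM in WT and at most 83.2 ± 12.3 CPM in the other models.

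A further 0.752% of tested genes were lower in NFE2L2_MET than in WT and in all 3 other models. Sp5 was at 0.488 ± 0.129 CPM in NFE2L2_MET and 7.48 ± 1.097 CPM in CTNNB1_MET, the nearest other model (difference -3.93 ± 0.27, adjusted p = 1.2e-07). For Glul the levels were 313 ± 45.4 CPM and 1802 ± 208 CPM (difference -2.53 ± 0.15, adjusted p = 4.61e-08). Oat was nearest to CTNNB1_NFE2L2_MET, at 472 ± 52.3 CPM against 202 ± 58.3 CPM (difference -1.22 ± 0.21, adjusted p = 0.000448). Of 112 tested genes of the 7 NRF2 lists, 64 were lower and 11 higher in NFE2L2_MET than in CTNNB1_NFE2L2, against 18.3% and 18.9% of all tested genes. Nqo1 was lower in NFE2L2_MET, at 100.6 ± 23.9 CPM, than in CTNNB1_NFE2L2, at 248 ± 4.52 CPM (difference -1.30 ± 0.16, adjusted p = 1.33e-05), and the same held for Slc7a11 (difference -1.41 ± 0.37, adjusted p = 0.00911), whereas Ptgr1 was higher, at 223 ± 65.2 against 71.98 ± 6.32 CPM (difference 1.63 ± 0.23, adjusted p = 0.000103). In CTNNB1_MET, which carries no mutant NRF2, Nqo1 was at 9.14 ± 1.78 CPM (difference 3.47 ± 0.18, adjusted p = 1.07e-08). Cyp2b9, by contrast, was at 100.02 ± 11.1 CPM in CTNNB1_MET and 1.38 ± 0.111 CPM in CTNNB1_NFE2L2, against 90.5 ± 6.09 CPM in NFE2L2_MET, and did not pass against CTNNB1_MET (difference -0.15 ± 0.20, adjusted p = 0.686).

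**Figure D5:**
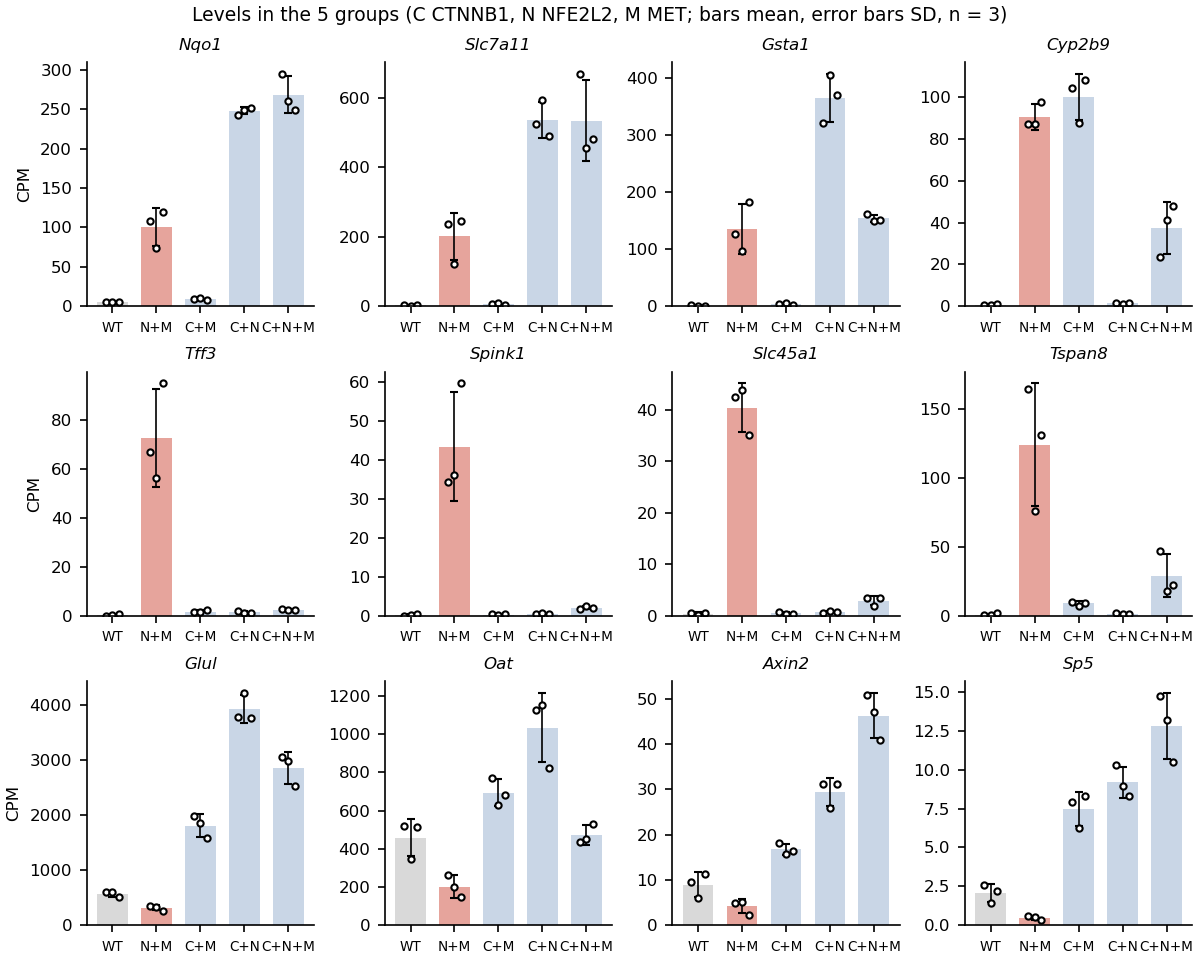
CPM of 12 genes in WT, NFE2L2_MET (N+M), CTNNB1_MET (C+M), CTNNB1_NFE2L2 (C+N) and CTNNB1_NFE2L2_MET (C+N+M): bars are means, error bars SD and points the 3 libraries. Tff3, Spink1, Slc45a1 and Tspan8 are highest in NFE2L2_MET, whereas Glul, Oat, Axin2 and Sp5 are lowest there.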

How the data were processed

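Read counts per gene came from 15 mouse liver libraries, 3 in each of 5 groups taken from the labels. The authors trimmed reads with Trimmomatic and aligned them with STAR to mm10, per the submitters' processing notes; versions and annotation were not given in the sources used here. The deposited values are raw counts per gene, with an unstranded column that was used and 1 column for each strand. The strand columns held nearly equal shares (49.7% to 49.9% in the first), so strand gives no help with overlapping genes. Rows that name no gene were left out; in the 6 libraries compared they held 12.7% to 25.9% of reads as unmapped, 5.21% to 6.45% as multimapping, 6.85% to 9.23% outside genes and 1.48% to 1.76% as ambiguous. Reads that fit near-identical copies equally well were thus not counted. All 14098 of 24411 genes that passed edgeR's filterByExpr were fitted over the 15 libraries, which share 1 estimate of the spread, with trimmed-mean scaling and edgeR's quasi-likelihood test (edgeR 4.0.16, R 4.3.3), and p-values were adjusted by Benjamini-Hochberg over all tested genes at a threshold of 0.05. CPM values use the same scaling. The standard error of a log2 fold change, given after ±, is its size divided by the square root of its F statistic. The steps were run on simulated counts with the same spread for every gene and a limited set of planted changes. That setting holds no libraries that stand apart, so it does not show how the test behaves with them.

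The members and the 51 gene lists were chosen with earlier results of these data known. Named genes are the counterparts of the introduced genes, the 4 listed genes with the smallest p in each list and key list members. They also include the 12 largest rises and the 12 largest falls among abundant genes whose groups did not overlap. The 6 largest differences in each direction from CTNNB1_MET and CTNNB1_NFE2L2 complete the rule. Abundant genes had a mean CPM over all libraries, as fitted by edgeR, of at least 3 on the log2 scale. Not all named genes are printed, and a few others were chosen after their values were seen. Alternatives were RLE and total-count scaling, no filter, DESeq2 1.42.0, only the 6 libraries compared, 1 strand column, a term for the libraries marked ADDED and leaving out each library. A fit without WT 2 and NFE2L2_MET 2, and the counts per list without each library, were added after seeing the data. Promoters were searched in RefSeq sequences of GRCm38.p6, matched by symbol.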

Additional observations from a re-analysis of the deposited data

Results flagged for a closer look

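Several genes changed in NFE2L2_MET against WT by another amount than in every other model, by the direct test of each model difference. They were picked after their values were seen, from genes that differed from WT and from all 3 other models in 1 direction. Each value below is the smallest of the 3 differences on the log2 scale, as NFE2L2_MET minus the nearest model. The smallest differences above the other models, all against CTNNB1_NFE2L2_MET, were 4.99 for Tff3, 4.43 for Spink1, 3.96 for 5330417C22Rik, 3.78 for Slc45a1, 2.32 for Gldc and 2.10 for Tspan8. Gldc rose over WT by 1.47 and was lower than in WT on average in the other models. 5330417C22Rik had a log2 fold change of 6.58 over WT.

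Differences below the other models were -3.93 for Sp5, -2.53 for Glul and -2.01 for Axin2, each against CTNNB1_MET, and -2.51 for Lhpp and -1.22 for Oat, against CTNNB1_NFE2L2_MET. Lect2 and Avpr1a were lower than in the other models too, with the nearest value against CTNNB1_NFE2L2: -2.35 for Lect2, a secreted hepatocyte protein, and -1.24 for Avpr1a. Lect2 was at 85.1, 80.5 and 91.8 CPM in WT and 61.7, 35.7 and 40.04 CPM in NFE2L2_MET.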

How the results depend on the processing

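No paired analysis was possible because no replicate number in the labels ties a library of 1 group to a library of another. The 3303 genes that differed between NFE2L2_MET and WT became 2115 when only the 6 libraries compared were fitted, with 13137 genes tested, and ranged from 2137 without NFE2L2_MET 3 to 3008 without WT 3. The count was 2938 without a filter on low counts and 3630 with DESeq2, and lay within 1.5 times the main count under RLE and total-count scaling, the term for libraries marked ADDED and the counts of 1 strand as well. The difference from CTNNB1_MET ranged from 1343 genes without CTNNB1_MET 2 to 1654, that from CTNNB1_NFE2L2 from 3980 to 4911, and that from CTNNB1_NFE2L2_MET from 3241 to 4122 when single libraries were left out. With total-count scaling the last became 6928, and the median log2 difference of all genes moved to -0.38. With single libraries left out, the log2 fold change of Saa1 ranged from -1.60 to 5.14 and that of Orm2 from -1.55 to 3.55, the highest without WT 2, and without WT 2 and NFE2L2_MET 2 they were 3.62 and 2.26; these 2 genes alone among the 198 named reversed with a call. In lists with no member called in 1 direction, at most 3 members passed an unadjusted p under 0.05 in that direction and at most 2 passed in DESeq2, apart from the heat shock list. Near-identical copies, low counts in WT and a few libraries that stand apart limit the gene values, and no library shows what part of the change belongs to hepatocytes.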

Other observations

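Of 22 genes of the ATF4 and unfolded protein response, 3 rose, a share near the 13.5% of all tested genes, and none fell; in DESeq2 6 rose and 2 fell. Psat1, the aminotransferase of serine synthesis, was at 5.39, 6.47 and 3.66 CPM in WT and 23.3, 12.04 and 20.4 CPM in NFE2L2_MET (log2 fold change 1.84 ± 0.33, adjusted p = 0.0015). Psph, the last enzyme of that pathway, went from 6.97, 5.99 and 8.21 to 18.4, 16.3 and 16.8 CPM (log2 fold change 1.28 ± 0.17, adjusted p = 6.43e-05). No range overlapped in either gene. Ddit3, the stress-induced death factor, was at 11.1, 8.66 and 10.2 and 9.49, 13.4 and 13.7 CPM (adjusted p = 0.59). The call of the third riser, Asns, was lost when single libraries were left out, and 2 members were called lower without WT 2.

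Of 10 glycogen genes, 3 rose and none fell. The branching enzyme gene Gbe1 rose from 80.8, 85.8 and 94.03 to 294, 198 and 267 CPM (log2 fold change 1.54 ± 0.13, adjusted p = 8.83e-07) and the primer gene Gyg from 3.02, 3.44 and 2.82 to 8.43, 6.65 and 8.53 CPM (log2 fold change 1.34 ± 0.17, adjusted p = 3.45e-05). Of 21 genes of glycolysis and gluconeogenesis, 4 rose and 2 fell, against 13.5% and 9.89% of all tested genes. Pklr, the liver pyruvate kinase, rose from 115.1, 114.7 and 124 to 233, 242 and 229 CPM (log2 fold change 0.99 ± 0.15, adjusted p = 0.000219). Neither fall was called without WT 1, without WT 3 or without NFE2L2_MET 3. Among the p53 targets, D cyclins and brakes, 4 of 24 rose and 3 fell, near the 13.5% and 9.89% of all tested genes. Ccng1, a cyclin induced by p53, rose from 25.7, 24.9 and 27.8 to 36.6, 35.1 and 35.9 CPM (log2 fold change 0.46 ± 0.08, adjusted p = 0.00124), while Cdkn1a was at 4.39, 4.03 and 25.7 and 9.13, 13.6 and 12.4 CPM (adjusted p = 0.974). The falls numbered 1 without WT 1, NFE2L2_MET 2 or NFE2L2_MET 3 and none without NFE2L2_MET 1.

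Of 13 immediate early and heat shock genes none passed in edgeR's test; 5 were higher at an unadjusted p under 0.05, and 3 rose in DESeq2. Hspa1b, an inducible heat shock gene, was at 24.95, 11.03 and 7.95 CPM in WT and 47.5, 49.9 and 121.2 CPM in NFE2L2_MET (adjusted p = 0.0517). In the core clock, 2 of 19 genes rose and 3 fell, near the 13.5% and 9.89% of all tested genes. When single libraries were left out, the falls numbered from 1 to 5 and the rises from none (without WT 3, NFE2L2_MET 2 or NFE2L2_MET 3) to 2. Of 30 oxidative phosphorylation genes, 5 fell, against 9.89% of all tested genes. The falls numbered 11 without WT 2, 2 without WT 1, NFE2L2_MET 1 or NFE2L2_MET 2, and 3 without NFE2L2_MET 3.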
